A study of Arabidopsis thaliana with 12 samples.

Results

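The 57 Arabidopsis thaliana genes described here are listed under a chromosome locus alone in the platform's annotation. They were at least 4.03-fold lower in leaves with the induced CPR5 fragment than in water-sprayed leaves of the same line. In wild-type leaves the dexamethasone spray left them within 0.4 log2 units. They were measured by 58 probe sets, out of 11933 probe sets for a single locus-named gene and 22746 tested in all. A probe set was taken when its group mean differed by at most -2 (log2) between CPR5-C dexamethasone and CPR5-C water leaves, and by less than 0.4 in size between wild-type dexamethasone and wild-type water leaves. AT2G31790 was left out by the rule. Group means of all 12 arrays thus chose the genes, so their size of fall and their flatness in wild type are described here and not tested.

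The plants were wild-type Col-0 (WT) or the Col-0 line Dex:YFP-CPR5-C, here called CPR5-C, which carries the C-terminal part of CPR5 joined to YFP under a dexamethasone-inducible system. Dexamethasone is a synthetic glucocorticoid that plants do not make, used to switch on such transgenes, and the study's design describes the fragment as interfering with the native protein. Mature leaves of plants 4 weeks old received a spray of either water or dexamethasone at 50 µM, and were taken 24 hours later. The 4 groups were WT water, WT dexamethasone, CPR5-C water and CPR5-C dexamethasone, each with 3 samples that the labels call biological replicates. The labels do not say how many lines were used or how many plants were pooled, and the transgene's own transcript was not analysed here. All groups share the Col-0 background and the spray, and the CPR5-C water group carries the transgene without the inducer.

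The values are log2 signals of ATH1 microarrays, from which the authors had subtracted each probe set's median over the 12 arrays. A value of 0 is therefore the middle of the 12 arrays, a change of -1 is a 2-fold fall of signal, and no level can be compared between genes. Taken over all probe sets, the spread of these centred values (SD) lay between 0.68 and 0.69 for each induced CPR5-C array and between 0.13 and 0.23 for each of the other 9. The number of arrays limits the precision.

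CPR5 sits in the nuclear envelope as part of the pore complex, and mutants that lack it are known for spontaneous lesions, raised immunity, early senescence and defects of trichome and cell growth. Mature leaves invest heavily in the cell wall, in secreted proteins of the apoplast and in metabolic enzymes, and the leaf apoplast is also where defence proteins and receptor kinases meet microbes. The annotation tables used here give these loci no name and no product. The kinds of protein stated below are general background on each locus and not values of these data. They were sorted into kinds once the members were known, and 14 of the 57 genes are given no role.

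On the 3 CPR5-C dexamethasone arrays the 58 probe sets had medians of -2.20, -2.28 and -2.47, against -0.01 to 0.12 on the other 9 arrays. All 3 of those arrays lay below all 9 others for 58 of 58 probe sets, as they did for 20.6% of all probe sets tested. The rule bounds group means and makes that separation likely, without fixing it for each array, and nothing is read from it. The falls ran from -3.92 to -2.01 with a median of -2.35, and their standard errors (SE) in the fit over all 12 arrays ran from 0.07 to 0.33. Against WT dexamethasone leaves, CPR5-C dexamethasone leaves differed by -4.06 to -1.59, with a median of -2.30.

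**Figure D1:**
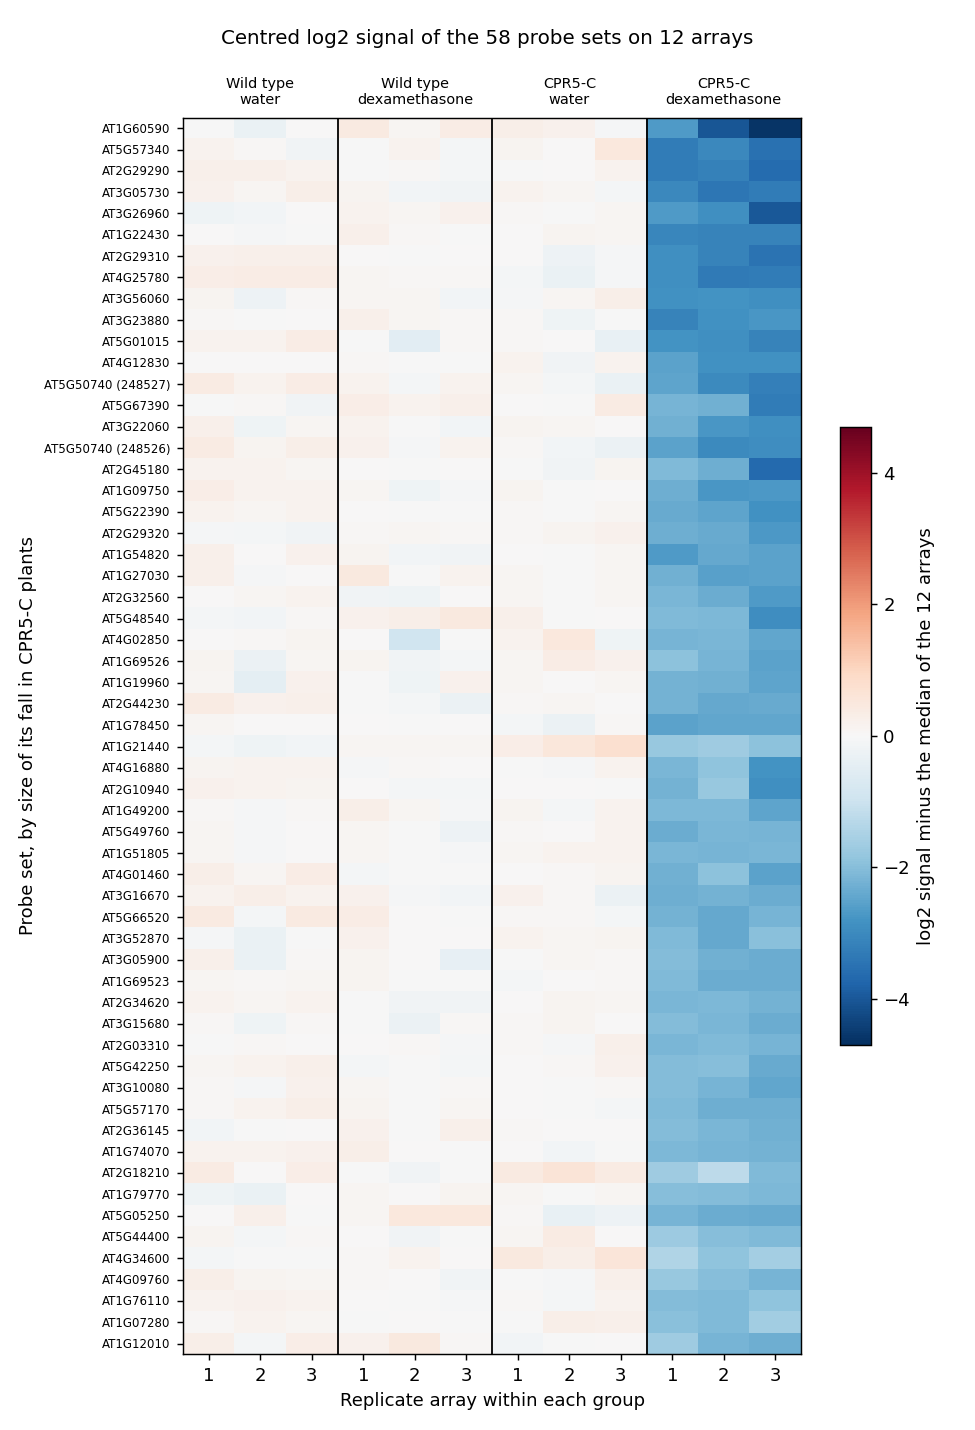
Heat map of the centred log2 signal of the 58 probe sets (vertical axis, largest fall at the top) on the 12 arrays (horizontal axis, 3 replicates in each of 4 groups). Blue marks signal below the median of the 12 arrays and red above it, and the 3 CPR5-C dexamethasone columns lie between -4.62 and -1.24 while the other 9 stay between -0.95 and 0.77.

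The 3 CPR5-C dexamethasone samples did not fall equally. Replicate 3 had the lowest of the 3 values for 41 probe sets, replicate 2 for 13 and replicate 1 for 4, and replicate 1 had the highest for 35. The SD among these 3 arrays had a median of 0.20 over the 58 probe sets, against 0.09 over all probe sets, and in the other groups the median SD of the 58 was 0.09 to 0.11. For 53 of the 58 it was below 0.5. The mean of the probe sets for poly-A spike controls, which are meant to be added before labelling, was -0.46, -0.59 and -0.09 on replicates 1, 2 and 3. Whether spikes were added to these samples was not checked here. The part of this mean in these differences was not tested.

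Proteins of the cell wall or the secretory route were encoded by 13 genes, with a median fall of -2.62. AT1G60590, of the pectin lyase-like family that holds the polygalacturonases, fell most of all 57 genes. It stood at -2.67, -4.02 and -4.62 on the CPR5-C dexamethasone arrays and between -0.30 and 0.41 on the other 9, a mean change of -3.92 (SE 0.33), or 15.1-fold lower. This gene had the widest spread of the 58 among the 3 induced samples, and replicate 1 was the least affected. Its wild-type change of 0.39 lay just inside the limit.

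Further kinds of wall-associated protein appeared more than once. AT3G26960 and AT3G16670 encode proteins with a pollen Ole e 1 allergen and extensin domain, and changed by -3.22 (SE 0.23) and -2.29 (SE 0.11). AT3G26960 reached -3.98 on replicate 3 and only -2.67 and -2.88 on the other CPR5-C dexamethasone arrays, whereas the 3 values of AT3G16670 lay between -2.35 and -2.23. AT2G45180 and AT2G10940 belong to the bifunctional inhibitor and lipid-transfer protein family, small cysteine-rich proteins of the cell surface. They changed by -2.67 (SE 0.28) and -2.31 (SE 0.18), and both were lowest on replicate 3, at -3.66 and -2.88.

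The rest of this group encodes other secreted proteins. AT3G05730, a defensin-like peptide, stood at -3.03, -3.38 and -3.30 on the CPR5-C dexamethasone arrays and between -0.15 and 0.27 elsewhere, a fall of 9.79-fold. AT4G25780, of the CAP family that includes the pathogenesis-related PR1 proteins, was 8.07-fold lower (-3.01, SE 0.11). The cysteine-rich secreted proteins with DUF26 domains AT3G22060 and AT5G48540 changed by -2.69 (SE 0.14) and -2.44 (SE 0.17). AT1G09750, an aspartyl protease of the apoplast, changed by -2.62 (SE 0.11). The smaller falls were those of the germin-like cupin AT3G10080 (-2.22), of AT5G44400, a berberine-bridge-like oxidase (-2.09), and of AT4G34600 (-2.06). AT4G34600 encodes CIF2, a sulfated peptide known from the root endodermis, where it guides the closure of the Casparian strip.

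Metabolic enzymes made up 14 of the 57 genes, with a median fall of -2.42. AT1G22430 and AT5G42250, both zinc-binding alcohol dehydrogenase-like proteins, changed by -3.19 (SE 0.07) and -2.22 (SE 0.09). AT1G22430 was among the most even of all: its CPR5-C dexamethasone values were -3.08, -3.13 and -3.15, and its other values lay between -0.05 and 0.23. AT3G56060, a GMC oxidoreductase related to the cuticle gene HOTHEAD, changed by -2.94 with values of -2.83, -2.82 and -2.87. The alpha/beta hydrolase AT4G12830 changed by -2.80, AT1G21440 of the phosphoenolpyruvate mutase family by -2.33 and the tautomerase-like AT5G57170 by -2.20. AT1G12010, an ACC oxidase of the last step of ethylene synthesis, lay at the edge of the rule with -2.01 (SE 0.15), and AT4G09760, a choline kinase-like protein, was close to it with -2.05.

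The PhzF-like gene AT4G02850 owed its wild-type change to a single array. Its WT dexamethasone values were 0.01, -0.95 and -0.01, and the WT water values 0.02, 0.06 and 0.15. The wild-type change was -0.39, and -0.08 without WT dexamethasone replicate 2. In CPR5-C leaves the gene went from 0.18, 0.49 and -0.21 with water to -2.19, -2.16 and -2.45 with dexamethasone.

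**Figure D2:**
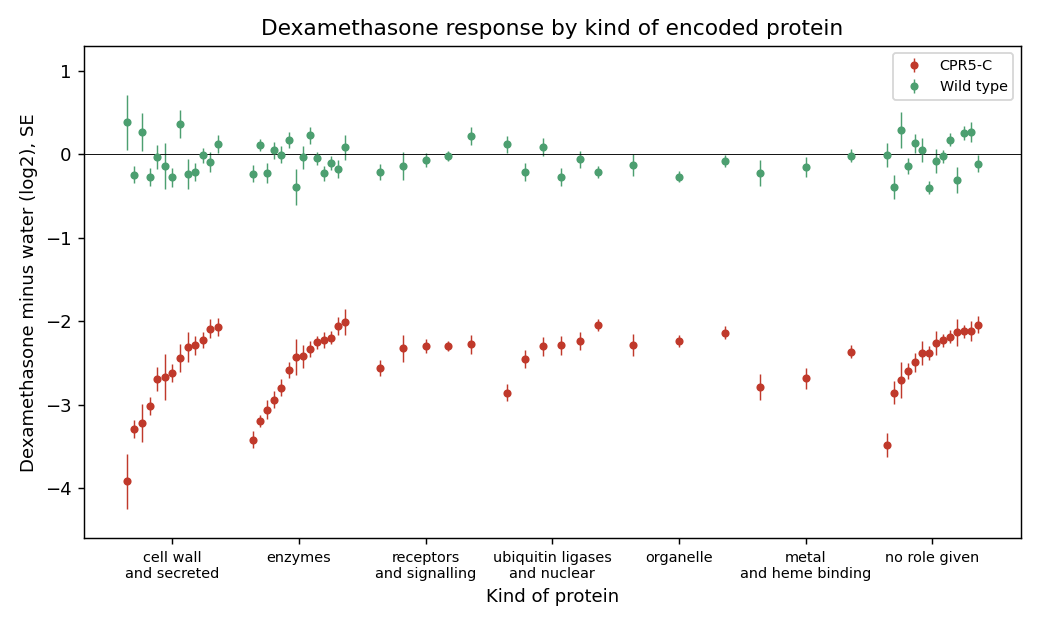
Change between dexamethasone and water (log2, vertical axis, bars are SE from the fit over 12 arrays with 3 per group) for each of the 58 probe sets, grouped by kind of encoded protein (horizontal axis), in CPR5-C (red) and WT (green) plants. The falls in CPR5-C plants reach -3.92 among cell wall and secreted proteins and -2.56 among receptors, and the WT values stay between -0.40 and 0.39 as the rule demands.

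Genes of signalling fell within a narrow range, from -2.56 to -2.28. AT5G49760 encodes the leucine-rich repeat receptor kinase HPCA1, known as a sensor of extracellular hydrogen peroxide. It stood at -2.31, -2.14 and -2.19 after induction, against 0.06, 0.03 and 0.15 with water in the same line, and was 4.91-fold lower (-2.30, SE 0.09). AT1G51805, a receptor kinase with leucine-rich repeats and a malectin-like domain, had the smallest replicate SD of the 58 in the induced group, 0.02, with a change of -2.30 (SE 0.07). The protein kinase AT1G54820 changed by -2.56, the leucine-rich repeat protein AT4G16880 by -2.33 and AT3G52870, which has a calmodulin-binding IQ motif, by -2.28.

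Of the 6 genes for ubiquitin ligases and nuclear proteins, the F-box gene AT3G23880 fell most (-2.85, SE 0.10), followed by the F-box gene AT2G32560 (-2.45) and the RING-finger gene AT1G49200 (-2.30). F-box and RING proteins pick the targets of the ubiquitin system. The bHLH factor AT4G01460 (-2.29), the zinc-finger gene AT3G15680 (-2.24) and AT1G76110, with ARID and HMG-box domains (-2.05), bind or are taken to bind nucleic acids. Proteins of the organelles were the mTERF gene AT2G34620 (-2.24), the pentatricopeptide repeat gene AT5G66520 (-2.29) and the cyclophilin AT1G74070 (-2.13). The 3 CPR5-C dexamethasone values of each organelle gene lay within -2.40 and -2.10.

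AT5G50740, of the heavy-metal-associated protein family, was the one gene with 2 probe sets, which share their target and are not independent. They changed by -2.79 (SE 0.15) and -2.68 (SE 0.12), and on the CPR5-C dexamethasone arrays they stood at -2.47 and -2.50, at -2.99 and -2.99, and at -3.21 and -2.90. The heme-binding SOUL-family gene AT1G78450 changed by -2.36 (SE 0.08). The 14 genes with no role given fell by a median of -2.32, led by AT5G57340 (-3.48, SE 0.14), AT5G01015 (-2.85), AT5G67390 (-2.70), AT5G22390 (-2.60) and AT1G27030 (-2.49). The others were AT1G19960, AT2G44230, AT3G05900, AT2G03310, AT2G36145, AT2G18210, AT1G79770, AT5G05250 and AT1G07280, from -2.38 to -2.04.

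Position on the chromosomes was not used by the rule. The genes lay on all 5 nuclear chromosomes, 17 on chromosome 1, 11 on 2, 10 on 3, 7 on 4 and 12 on 5, and the share on each was within 4 percentage points of that of all locus-named genes measured (29.8% against 26.0% on chromosome 1). Among protein-coding genes of the TAIR10.1 annotation, 2 pairs were direct neighbours. AT1G69523 and AT1G69526 both encode S-adenosylmethionine-dependent methyltransferases and changed by -2.25 (SE 0.08) and -2.42 (SE 0.14).

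The other pair belongs to a run of short-chain dehydrogenases on chromosome 2 that includes TRI, annotated as tropinone reductase. Of 12 genes of this family between AT2G29150 and AT2G29370, 11 were measured and 3 met the rule, AT2G29290, AT2G29310 and AT2G29320. AT2G29290 had 0.25, 0.24 and 0.16 on the WT water arrays, -0.01, 0.04 and -0.08 on WT dexamethasone, -0.02, 0.01 and 0.17 on CPR5-C water, and -3.29, -3.17 and -3.64 on CPR5-C dexamethasone. The last 3 values lay far below the other 9, and the change of -3.42 (SE 0.10) made it 10.7-fold lower. AT2G29310 stood at -2.87, -3.13 and -3.46 after induction, with a change of -3.06 (SE 0.12). AT2G29320 stood at -2.28, -2.39 and -2.70, with a change of -2.58 (SE 0.09).

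AT2G29300, which lies between them, missed the rule through wild type alone. It had 0.55, 0.50 and 0.49 with WT water, -0.17, -0.40 and -0.42 with WT dexamethasone, 0.22, 0.17 and 0.21 with CPR5-C water and -2.95, -2.83 and -2.78 with CPR5-C dexamethasone. Its change was -3.05 (SE 0.08) in CPR5-C and -0.84 (SE 0.08) in WT leaves. These 4 genes follow each other directly. On one side of them the difference in CPR5-C leaves was 0.34 (SE 0.13) for AT2G29260, -0.05 for AT2G29170 and 0.06 for AT2G29150. On the other it was -0.14 (SE 0.09) for TRI, -0.67 (SE 0.07) for AT2G29340, -0.41 (SE 0.09) for AT2G29360 and -0.02 for AT2G29370. The run was picked out after its values had been seen and is given without a test. Signal shared between the probe sets of these related genes was not separated.

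**Figure D3:**
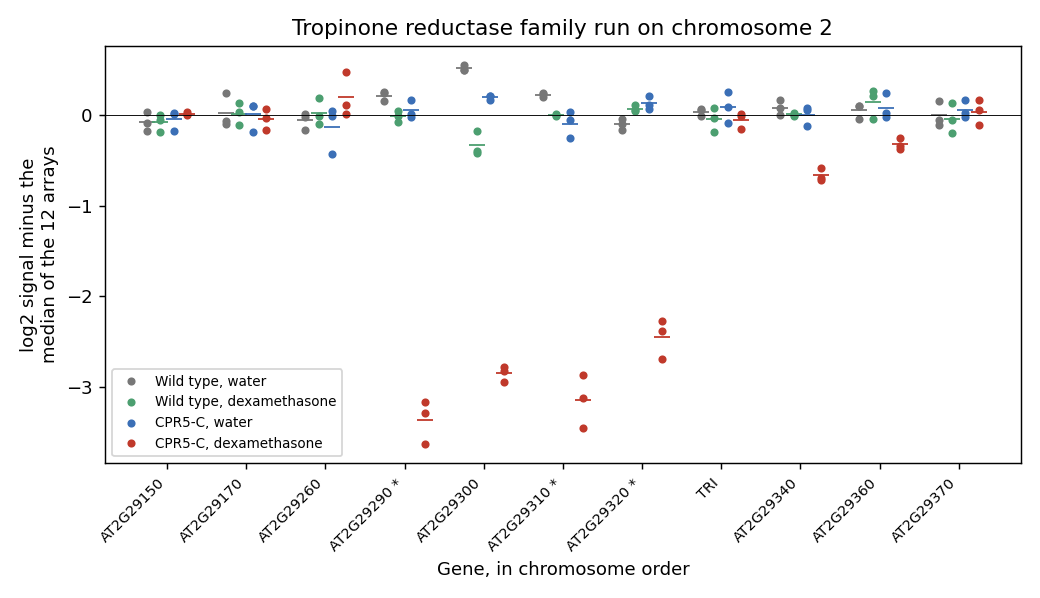
Centred log2 signal (vertical axis) of the 11 measured genes of the tropinone reductase family run, in chromosome order (horizontal axis), with a point for each array, a dash for the mean of 3 and colours for the 4 groups. Asterisks mark the 3 genes that met the rule, and the CPR5-C dexamethasone means of the 4 adjoining genes from AT2G29290 to AT2G29320 lie more than 2 log2 units below the other groups.

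Of the 114 places beside the 57 genes, 57 probe sets measured a neighbour that did not itself meet the rule. In CPR5-C plants 20 of these were lower after dexamethasone (limma, Benjamini-Hochberg adjusted p under 0.05), or 35.1%, against 24.6% of all probe sets, and 9 were higher, or 15.8%, against 23.3%. This difference in shares was not tested. Scaled to the poly-A spikes, 4 of the neighbours were lower and 22 higher, against 1856 lower and 13356 higher of all 22746 probe sets. The neighbours were all measured by single-gene probe sets. Of the 13513 probe sets of that kind, tested alone, 2936 were lower and 2862 higher. The median change of the neighbours was -0.10. Beside AT2G29300, ATG8E, an autophagy protein gene next to AT2G45180, fell below -2 (-2.18, with -0.86 in WT). AT3G16660, next to AT3G16670 and of the same Ole e 1 kind, had a difference of -1.38 (SE 0.07), and of -0.06 in WT leaves. AT5G44390 and AT5G44410, berberine-bridge-like genes on either side of AT5G44400, stood at -0.58 (SE 0.12) and -0.59 (SE 0.10).

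The wild-type plants show what dexamethasone spray did in leaves without the transgene. No group carried the inducible system without the fragment, so effects of the system and of the fragment cannot be told apart. Over the 58 probe sets the WT change ran from -0.40 to 0.39 with a median of -0.07, and 40 of 58 lay below 0. The 95% interval of the WT change had a median half-width of 0.23 and lay within 1 log2 unit of 0 for 57 of the 58. The exception was AT1G60590, with an interval from -0.32 to 1.09. As a description with no test, AT2G44230 had -0.40 (interval -0.57 to -0.22) and AT1G79770 had 0.25 (0.08 to 0.43). The flatness in wild type was set by the limit of 0.4, which does not show that a gene had no response.

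**Figure D4:**
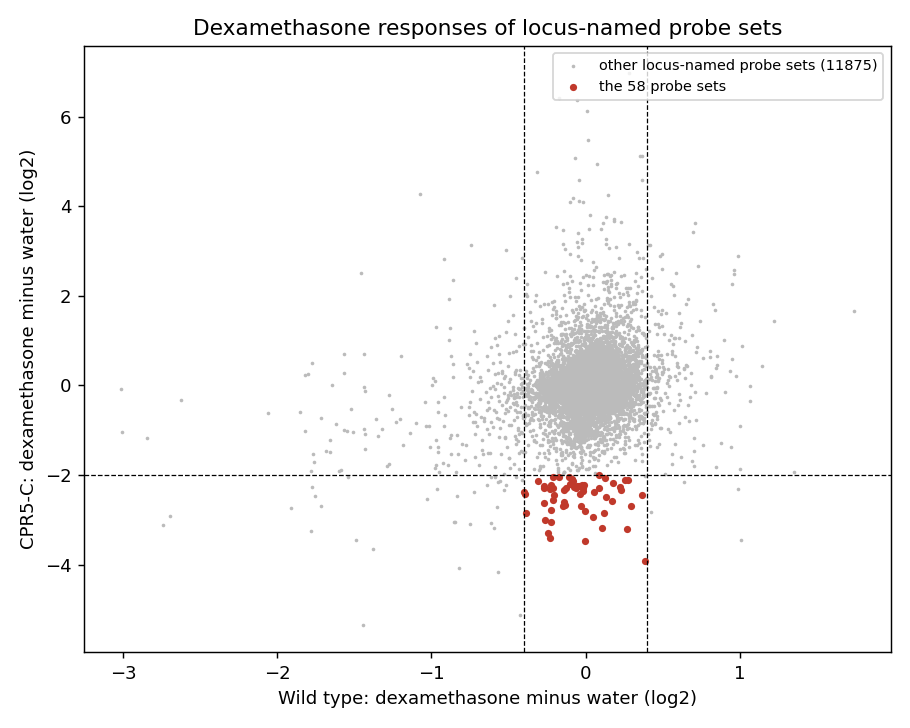
Change between dexamethasone and water (log2) in WT (horizontal axis) and in CPR5-C plants (vertical axis) for 11933 locus-named probe sets, as group means of 3 arrays. Dashed lines mark the limits of -2 and 0.4, and the 58 chosen probe sets (red) lie in the field below and between them. AT2G31790, left out by the rule, lies in that field too.

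The limits cut through a continuous range. Inside the limit for CPR5-C leaves, AT1G12010 stood at -2.01 and AT1G07280 at -2.04, and outside it AT3G22240 at -1.99 and AT1G16260 at -1.95. Inside the limit for wild-type leaves, AT2G44230 stood at -0.40 and AT4G02850 at -0.39, and outside it AT5G56100 at -0.41 and AT5G59670 at 0.42. Of all locus-named probe sets 96 fell by at least 2 in CPR5-C leaves, and of these 33 also fell by 0.4 or more in wild type and 4 rose by as much. The 96 include AT2G31790, which met both limits and was left out by the rule. AT1G13650, which changed by -5.11 in CPR5-C leaves, was outside by a wild-type change of -0.43. Among the 1580 single-gene probe sets with a gene name 19 met both limits, or 1.2%. Among locus-named ones, with AT2G31790 left out, 58 did, or 0.486%. Another 70 probe sets with no gene in the table met them too and were not analysed here.

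The uninduced line was then compared with wild type under water spray, the contrast of 2 groups that the rule did not use. It shares its arrays with the rule, and a chance high value of the CPR5-C water samples favours entry to the set. Of the 58 probe sets 3 differed (limma, adjusted p under 0.05), or 5.17%, near the 7.08% of all probe sets tested; 2 were higher, against 4.25% of all, and 1 was lower, against 2.83%. The median difference was -0.05 (range -0.48 to 0.68), beside 0.01 over all probe sets and 0.02 over the 107 locus-named probe sets that rose by at least 2 under the same wild-type limit. For all 58 the 95% interval lay within 1 log2 unit of 0. The 58 are all single-gene probe sets. Of the 13513 probe sets of that kind, tested alone, 708 were called in this comparison, 395 higher and 313 lower.

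AT1G21440 had the smallest adjusted p of the 3. The rule measures each fall from the CPR5-C water mean, so high values there helped AT1G21440 and AT4G34600 to meet it. Against WT dexamethasone leaves, CPR5-C dexamethasone leaves differed by -1.88 for AT1G21440 and -1.71 for AT4G34600. The water calls of these genes are thus not independent of the rule. AT1G21440 stood at -0.07, -0.22 and -0.15 in WT water leaves, at 0.32, 0.52 and 0.77 in CPR5-C water leaves, at 0.07, 0.08 and 0.09 in WT dexamethasone leaves and at -1.76, -1.68 and -1.93 in CPR5-C dexamethasone leaves. The uninduced line was thus above wild type on every array, by 0.68 (SE 0.10, limma adjusted p = 0.000681), while the induced line was below it. AT4G34600, the CIF2 gene, had the same order. Its values were -0.08, -0.03 and -0.03 in WT water, 0.45, 0.27 and 0.59 in CPR5-C water, 0.07, 0.15 and 0.03 in WT dexamethasone and -1.40, -1.88 and -1.61 in CPR5-C dexamethasone leaves. The difference between the water groups was 0.48 (SE 0.11, limma adjusted p = 0.0141); without CPR5-C water replicate 3 it was 0.40 and did not pass (adjusted p = 0.0812), nor did it with spike scaling (adjusted p = 0.290).

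AT4G25780, the CAP-family gene, was lower in the uninduced line. Its values were 0.30, 0.36 and 0.33 in WT water, 0.08, 0.06 and 0.05 in WT dexamethasone and -0.08, -0.33 and -0.05 in CPR5-C water leaves, and these 3 groups did not overlap. The difference between the water groups was -0.48 (SE 0.11, limma adjusted p = 0.0142); without CPR5-C water replicate 2 it was -0.40 (adjusted p = 0.0766), and with spike scaling -0.55 (adjusted p = 0.0525). With quantile normalization all 3 differences were larger and called, at 1.59 for AT1G21440, 1.07 for AT4G34600 and -0.86 for AT4G25780. That method gives every array the same distribution, which widens the spread of the water arrays. The 58 water differences, from -0.48 to 0.68 in the main fit, then ran from -0.86 to 1.59. The part of this widening in the larger differences and their calls was not tested. The next smallest p was that of a probe set of AT5G50740 (-0.38, SE 0.12, limma adjusted p = 0.0911), which passed with the replicate number as a block (adjusted p = 0.0281) and with quantile normalization (-0.65, adjusted p = 0.0420), and the gene's other probe set stood at -0.40 (adjusted p = 0.152).

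**Figure D5:**
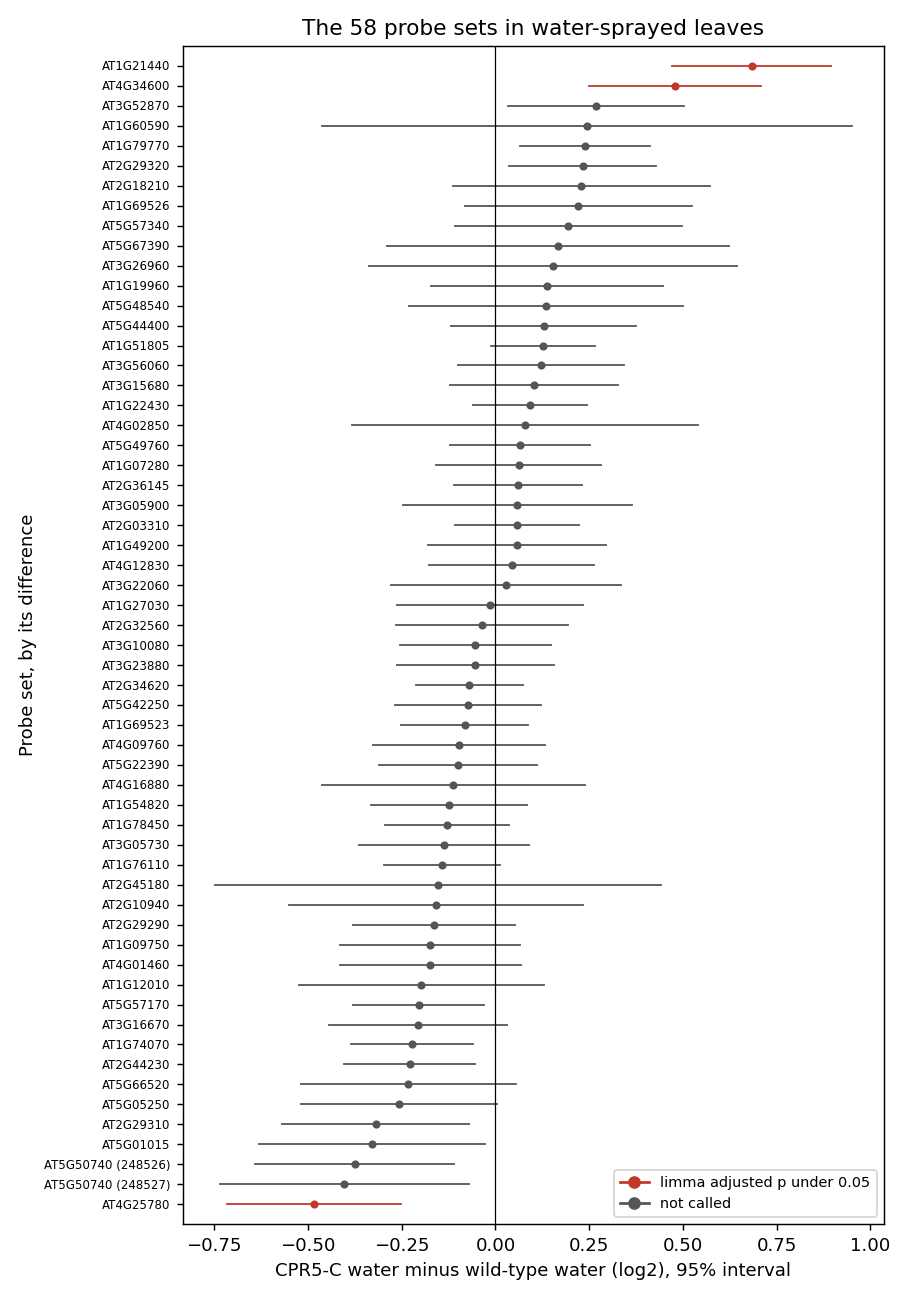
Difference between CPR5-C water and WT water leaves (log2, horizontal axis) for each of the 58 probe sets (vertical axis), with the 95% interval of the fit over 12 arrays. Red marks the 3 probe sets with limma adjusted p under 0.05, AT1G21440 (0.68), AT4G34600 (0.48) and AT4G25780 (-0.48), and most other intervals include 0.

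Related genes came from 4 lists of known pathway members, of which few were measured by a probe set with a single gene. In CPR5-C plants 47.9% of all probe sets differed and in WT plants 9.08%, so calls in the first are common; in WT plants 5.07% were higher and 4.01% lower. The 2 responses differed from each other (interaction term) for 38.5%, with 18.1% positive and 20.4% negative, a difference that the rule fixes for the 58. Of 23 genes of cuticular wax 2 were measured: WSD1, a wax ester synthase, rose by 2.15 (SE 0.15) in CPR5-C and by 1.03 in WT leaves, and AT5G61590, an ERF-type repressor of wax genes, changed by -3.46 (SE 0.08) and -1.49. Of 26 genes of phenylpropanoid and flavonoid synthesis 4 were measured. AT1G23390, a Kelch-repeat F-box gene, changed by -4.07 and in WT leaves by -0.82, the glycosyltransferase UGT78D1 by -0.53 and 0.74, and UGT78D2 by 0.47 and 0.52, all with limma adjusted p under 0.05. The CPR5-C calls of UGT78D1 and UGT78D2 were lost with quantile normalization (-0.58 and 0.28), and with spike scaling so were that of UGT78D1 (-0.12) and the WT call of UGT78D2 (0.34). The dihydroflavonol reductase gene DFR, at -0.11 and -0.01, was not called in either.

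Of the 3 pectin genes measured besides AT1G60590, from a list of 16, 1 rose, 1 fell and 1 was not called in CPR5-C leaves. AT1G48100, the polygalacturonase PGX3, rose by 2.88 (SE 0.11) in CPR5-C and by 0.98 in WT leaves, and ADPG1 changed by -0.19 (SE 0.06, limma adjusted p = 0.0281) and stood at -0.05 in WT leaves. Scaled to the poly-A spikes ADPG1 was at 0.23 and not called. Its call was also lost with quantile normalization, with only the groups compared, and without CPR5-C water replicate 1 or CPR5-C dexamethasone replicate 2 or 3 (highest adjusted p = 0.247). AT1G78400 stood at -0.14 and -0.05, not called. The 2 measured of 21 clock genes both rose in CPR5-C leaves, GI by 2.40 and AT5G52660 by 0.44, and GI also in WT leaves by 0.65. The call of AT5G52660 was lost with quantile normalization (0.26), and that of GI in WT leaves with spike scaling (0.48).

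Cell type markers had a single-gene probe set for few of the types a leaf holds. Markers and pathway genes without one may still be on the array, since 8730 probe sets have no gene in the annotation and 503 have several. The mesophyll gene RCA stood at -0.07 in CPR5-C plants (limma adjusted p = 0.374), and at 0.34 with spike scaling (limma adjusted p = 0.0471). With that scaling the median change of all probe sets was 0.39, above that of RCA, and 13356 of 22746 were called higher. Both measured of 7 guard cell markers fell in CPR5-C plants, AT1G22690 (-3.06) and FMA (-0.28). In WT leaves AT1G22690 was lower too (-0.61, limma adjusted p = 0.0033), and FMA was at 0.07 and not called. The CPR5-C change of FMA was 0.13 and not called with spike scaling. It was -0.20 and not called without CPR5-C dexamethasone replicate 2. The phloem gene SWEET11 was higher by 0.51 in CPR5-C plants. No marker of epidermis, xylem, trichome or flower had a single-gene probe set. PYK10, a root gene, was at -0.05 and not called. With spike scaling PYK10 was at 0.37 and called (limma adjusted p = 0.0377), again below the median of all probe sets. In whole leaves fewer cells of a type and less RNA per cell cannot be told apart, and the part of cell composition in the falls was not tested. With centred values the leaf identity of the samples could not be checked by level.

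Scaling bears on the size of every fall. Scaled to the poly-A spikes, the median of all probe sets in CPR5-C plants moved from -0.02 to 0.39, and the 58 changes ran from -3.50 to -1.60 with a median of -1.94. All 58 stayed below 0. In WT plants the same scaling moved their range to -0.57 to 0.21, and 20 of the 58 met both limits of the rule.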

How the data were processed

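RNA from 12 leaf samples was hybridised to ATH1 arrays, one array per sample. Per the submitters' processing notes, the authors used RMA, with no version or options in the sources used here, and the deposited values were taken as log2 signals because RMA gives that base. Each of the 22810 probe sets had a median of 0 across its 12 values (tolerance 1e-06), which shows that the deposited table was centred per probe set. No 2 arrays held the same values. Groups and replicate numbers came from the sample titles.

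The 64 control probe sets were left out of the tests, and 22746 remained, with 1 gene (13513), several (503) or none (8730) in the platform's annotation table. R 4.3.3 with limma 3.58.1 (lmFit, eBayes) gave group means from all 12 arrays in 1 model, with 8 residual and 5.79 prior degrees of freedom. The p-values, from tests of both directions, were corrected over all probe sets by the Benjamini-Hochberg method. A fall, rise or difference was called at adjusted p under 0.05. The fit was tested on simulated data. Neighbours came from the order of protein-coding genes in the TAIR10.1 assembly table, whose coordinates are not given. Figures were drawn with matplotlib 3.10.9.

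All 58 probe sets that met the rule are named, with genes at its limits and all measured genes of the lists. The members and lists were chosen with earlier results of these data known. Same-numbered replicates correlated from -0.21 to 0.36 in their deviations from the group means (median -0.04), so the numbers were not taken as pairs. Alternatives were a replicate block, only the groups compared, quantile normalization, array median centring, scaling to 24 poly-A spike probe sets, a trended and robust variance, single-gene probe sets only, adjusted p under 0.01 and each array left out. Background correction and a filter on dim probe sets could not be varied on centred values. No sequences were used here.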

Additional observations from a re-analysis of the deposited data

Results flagged for a closer look

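The response to dexamethasone differed between CPR5-C and WT plants, by the interaction term of the fit (limma, adjusted p under 0.05), for 9 of the measured genes of the pathway and marker lists. It was positive for AT1G48100 (1.90), GI (1.75), WSD1 (1.12) and SWEET11 (0.35). The interaction was negative for AT1G23390 (-3.25), AT1G22690 (-2.45), AT5G61590 (-1.97), UGT78D1 (-1.27) and FMA (-0.35). With quantile normalization 7 of the 9 calls were lost: the sign turned for AT1G48100 (-0.38, adjusted p = 0.394), WSD1 (-0.16, adjusted p = 0.797) and AT5G61590 (0.11, adjusted p = 0.692), and GI (0.04), SWEET11 (0.24), AT1G22690 (-0.47) and FMA (-0.34) kept their sign. Quantile normalization narrows the spread of the 3 induced arrays and widens that of the other 9. Its part in these sign turns and lost calls was not tested. FMA turned to 0.24 with spike scaling (adjusted p = 0.313), and its call was lost with 7 of the 12 arrays left out in turn (adjusted p from 0.0503 to 0.0722). AT1G23390 and UGT78D1 were called under every alternative run. The interaction also takes in the difference between the 2 water groups. That difference was called for AT1G48100 (0.69), GI (0.55), UGT78D1 (0.68) and AT5G61590 (-0.82), and not for the rest of the 9. Over all probe sets 38.5% had such an interaction, 18.1% positive and 20.4% negative. For the 58 probe sets of the main set the interaction follows from the rule and was not tested.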

How the results depend on the processing

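In the water comparison 3 of the 58 probe sets were called, and 3 with only the groups compared, 4 with the replicate block, 7 with quantile normalization and 1 each with spike scaling and at adjusted p under 0.01; with an array left out the count ran from 2 (without CPR5-C water replicate 2 or 3) to 5 (without CPR5-C dexamethasone replicate 1 or 3). All calls in that comparison, 1610 of 22746, became 1926 with quantile normalization, 1319 with only the groups compared and 1352 with the replicate block. They became 783 at the stricter threshold, 462 with spike scaling (34.0% higher in place of 60.1%) and 708 among single-gene probe sets. With an array left out they ran from 900 to 1665. They were 900 without CPR5-C water replicate 3, 922 without replicate 2 and 1019 without WT water replicate 3. For CPR5-C plants, 10895 calls became 5557 with quantile normalization, 5798 among single-gene probe sets, 15212 with spike scaling (87.8% higher in place of 48.7%) and 10085 to 11131 with an array left out. For WT plants, 2065 became 1152, 987 (13.3% higher in place of 55.9%) and 1012 at the stricter threshold, with spike scaling and among single-gene probe sets, and 1466 to 2133 with an array left out. The interaction's 8755 became 3538, 15511 (93.3% higher in place of 47.1%) and 4555 with quantile normalization, spike scaling and single-gene probe sets, and 8087 to 8747 with an array left out. Fewer probe sets are tested in the single-gene setting; the causes of the other shifts were not tested. Quantile normalization by construction gives the induced arrays, with an SD of 0.68 to 0.69, the distribution of all 12. It also widens the spread of the other arrays, those of the water comparison included. It reduced the 58 falls to -2.14 to -0.46, so that 1 met the rule. Array median centring kept 57 and leaving out an array 53 to 58. The sign of the interaction turned with quantile normalization for WSD1 (-0.16), AT5G61590 (0.11) and AT1G48100 (-0.38). With spike scaling it turned for UGT78D2 (0.54), AT1G78400 (0.49), RCA (0.50) and FMA (0.24), and the CPR5-C change turned for ADPG1 (0.23), RCA (0.34), FMA (0.13) and PYK10 (0.37). The replicate block added a probe set of AT5G50740 and took away no call among the 58. Among the neighbours, 17 to 20 were called lower and 7 to 10 higher with an array left out. With quantile normalization 8 were lower and 4 higher, against 2678 lower and 2879 higher of all 22746 probe sets. These counts of the neighbours, and those of the 58 that met the rule, were chosen after seeing the data.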
